A study of Danio rerio with 4 samples.

Results

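The genes described here are 47 zebrafish symbols of the machinery of mitosis and the G2/M transition, chosen by function with earlier results of these data known. By symbol, 46 of them were found among the 27472 genes of the expression table. The ubiquitin-conjugating enzyme gene ube2c stands on 2 rows with different Ensembl IDs, which gives 47 rows, and all 47 passed the filter on low values. No row carries the symbol incenp. A row named after a clone, CABZ01058261 (ENSDARG00000099194), is described in the deposited annotation as inner centromere protein, and its values are given apart from the 47.

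Mitosis is driven by a cascade of kinases and by timed protein destruction. Cyclins A and B switch on Cdk1, Polo and Aurora kinases build the spindle, and the spindle checkpoint holds back the anaphase promoting complex until chromosomes are attached. Transcripts of most of these genes build up in G2 and M and are low in cells that have left the cell cycle.

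RNA came from AB strain zebrafish at 72 hours post fertilization (hpf). The control embryos received the solvent alone, dimethyl sulfoxide (DMSO), from 4 hpf. The exposed embryos received bisphenol C (BPC, one of the bisphenols) at 4 µM from the same hour. There were 2 libraries of each kind with the replicate numbers 1 and 3, and pairs of values below are in that order. The labels do not give the number of larvae in a library or say that libraries came from separate clutches, so the spread that p-values rest on is that of these libraries and may be technical. They name no tissue, and markers of neurons, muscle, epidermis, blood and liver were all present. In such bulk RNA, the number of dividing cells, their RNA content and the part of other cells cannot be told apart. The study's title concerns BPC and reduced cell proliferation in the liver and the intestine, and these data do not separate those organs from the rest of the larva.

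Values are FPKM (fragment numbers scaled by transcript length and by the mapped fragments of the library), so levels of different genes can be compared per length. The FPKM of all genes summed to 355583 and 355364 in the DMSO libraries and to 422245 and 425611 in the BPC libraries. Read totals are not in the files used here, so the depth is unknown. The test was limma on log2(FPKM + 1) over 19873 genes, two-sided, with Benjamini-Hochberg adjustment over all of them, and a gene was called at an adjusted p under 0.05. Log2 changes are on that scale, BPC against DMSO, which understates the change of low genes. Their median over all tested genes was -0.12, and a relative change is a log2 change minus that median.

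On deposited FPKM, mitosis genes were called higher in BPC larvae more often than other genes, by modest amounts. That excess of calls depended on scaling and on keeping both control libraries. Because the rows were chosen with earlier results of these data known, their share of calls is a description, not a test. Of the 47 rows, 14 were called higher, where 7.06% of all tested genes were, and 0 were called lower, where 17.5% of all tested genes were. At an unadjusted p under 0.05 in limma, 25 rows were higher and 1, kif20a, was lower. Here and below, the share of all tested genes at an unadjusted p under 0.05 was not counted. Such counts therefore have no background, and 7.06% and 17.5% belong to the adjusted threshold. Among tested genes with a mean FPKM within the range of the 47 rows, 6.77% were called higher and 17.1% lower. The median log2 change of the rows was 0.31, or 0.42 relative to all tested genes. The changes ran from -0.31 for kif20a to 0.77 for ndc80. Ratios of the group means ran from 0.783 to 1.79, so no row reached a 2-fold change.

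Both BPC libraries lay above both DMSO libraries in 39 of the 47 rows, against 23.0% of tested genes. Both lay below in 1 row, kif20a, against 45.1% of tested genes. In the remaining 7 rows the groups overlapped.

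Values were mostly higher in BPC library 1 than in BPC library 3. Library 1 was the higher of the pair in 40 of 47 rows, against 54.8% of all tested genes. DMSO library 1 was above DMSO library 3 in 20 rows, against 45.8% of all tested genes. The median log2 difference of the rows from DMSO 1 and DMSO 3 was 0.45 and 0.39 for BPC 1, and 0.23 and 0.18 for BPC 3. Summed over the 47 rows, FPKM was 491 and 508 in DMSO and 687 and 585 in BPC. Of all FPKM of a library the rows held 0.138% and 0.143% in the controls, against 0.163% and 0.138% after BPC. By share, BPC 3 therefore did not lie above the controls.

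**Figure D1:**
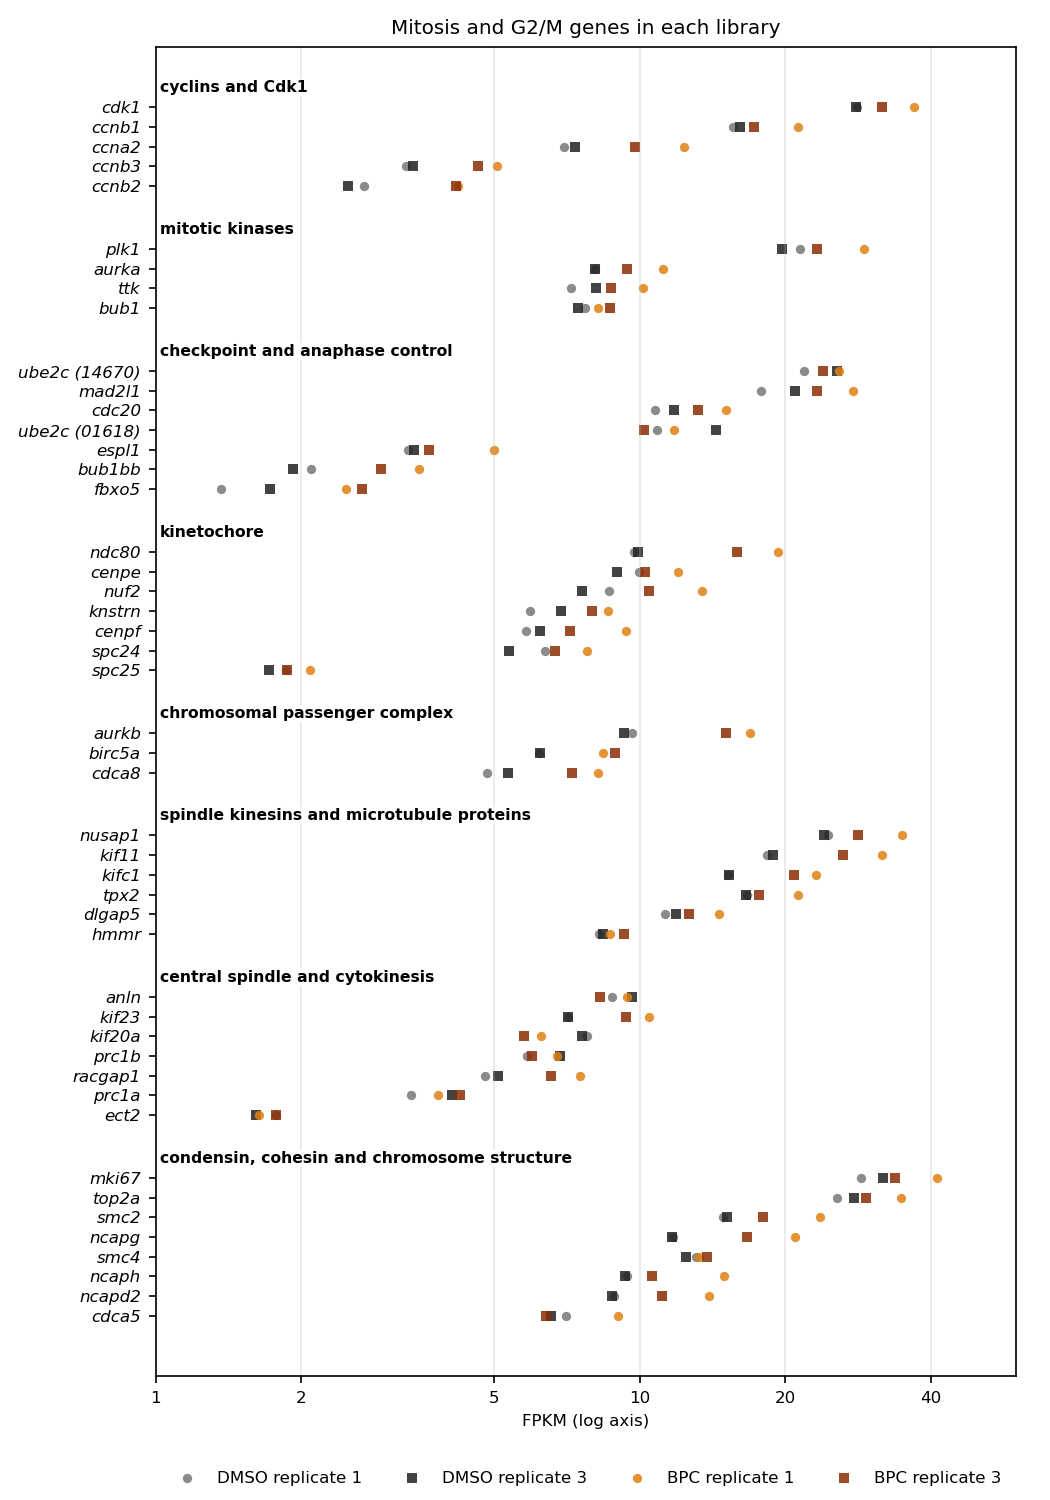
FPKM of each of the 47 rows in each of the 4 libraries on a log axis, grouped by function, with DMSO replicates in grey and black and BPC replicates in orange and brown. Both BPC points lie to the right of both DMSO points in 39 rows, and both lie to the left in 1 row, kif20a.

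The calls depended on keeping both control libraries and on scaling. Without DMSO replicate 1 and without DMSO replicate 3, 0 and again 0 of the 47 rows were called higher by limma, with 10 and 11 rows at an unadjusted p under 0.05, where 1.74% and 2.18% of all genes tested were called higher. The median log2 change was then 0.28 and 0.35, against 0.31 with all libraries. Without a DMSO library, the spread within a group comes from the BPC pair alone. The median SD of the rows was 4.38% of the mean in DMSO and 10.6% in BPC, against 7.23% and 11.7% over all tested genes. Without BPC replicate 1, 7 rows were called, beside 5.69% of all genes tested, and the median was 0.18. Without BPC replicate 3, 28 rows were called, beside 10.7% of all genes tested, and the median was 0.42. With scaling to transcripts per 1000000 (TPM), which gives every library the same total, kif20a was called lower, beside 36.7% of all tested genes. The rows called higher were then ndc80 and aurkb. The 2 rows are 4.26% of the 47, close to the 3.82% of all tested genes called higher in that scaling, so the excess of higher calls was not seen there. The sign of 12 rows, none of them called, changed with it. The median of the rows was 0.08 in that scaling and that of all tested genes -0.36. With 0.1 or 0.01 in place of the 1 added to FPKM, 10 of the 14 calls were kept and no other row was called. The 10 are 21.3% of the rows, beside 6.61% and 6.30% of all tested genes called higher. The calls of ccnb3, bub1bb, fbxo5 and racgap1 were lost in both settings (limma adjusted p 0.0503 to 0.0586). Without the filter on low values, under which 26929 genes were tested, ndc80, aurkb, kif11 and kifc1 were called and the other 10 calls ended (adjusted p up to 0.0963), beside 2.78% of all genes tested. Relative to all tested genes, the median of the rows lay between 0.31 and 0.53 as reported and under the 13 alternatives run, and each of the 14 called genes had a log2 change above 0 in every one.

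**Figure D2:**
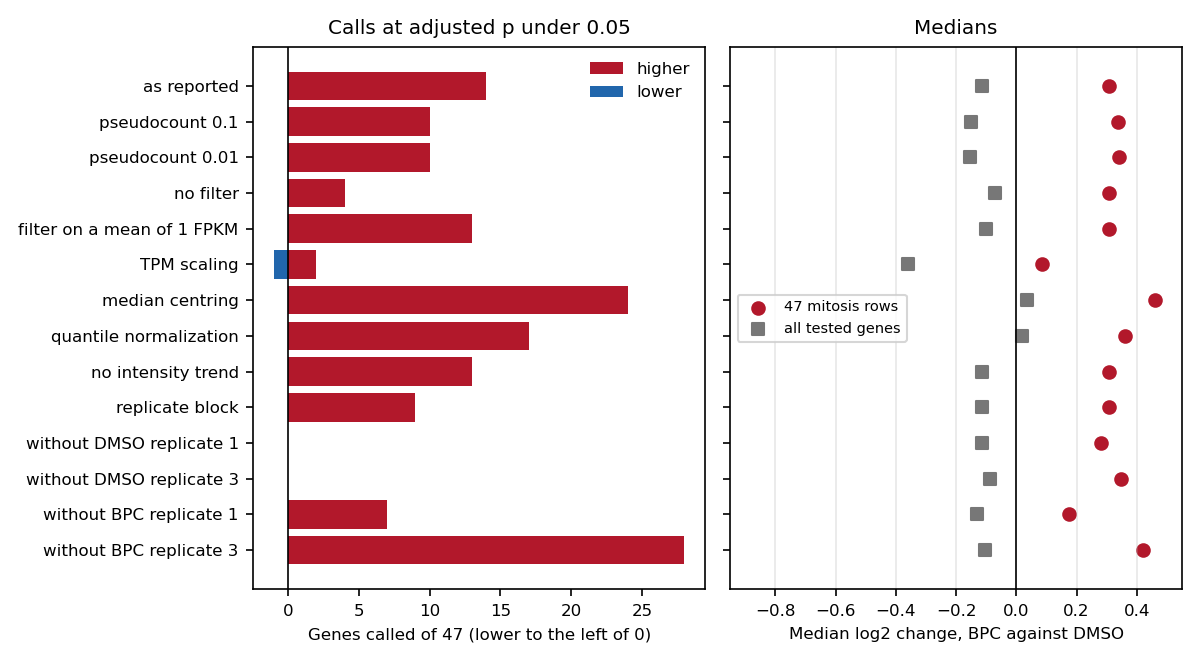
Left, the number of the 47 rows called under each setting; right, the median log2 change of the 47 rows (circles) and of all tested genes (squares), BPC against DMSO. The count called higher runs from 0 without a DMSO library to 28 without BPC replicate 3, and the circle lies to the right of the square in every setting.

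Among the cyclins and Cdk1, 3 of 5 genes rose. In this and the other functional groups, such counts stand beside 7.06% of all tested genes called higher. Counts of rows with both BPC libraries above both DMSO libraries stand beside 23.0% of tested genes. Cyclin A2, which acts in S phase and into early mitosis, had ccna2 at 6.98 and 7.35 FPKM in DMSO and 12.4 and 9.77 in BPC. Its log2 change was 0.55 (SE 0.14, limma adjusted p = 0.0325). The B-type cyclin gene ccnb2 was at 2.69 and 2.49 FPKM against 4.21 and 4.17, a log2 change of 0.53 (SE 0.12, adjusted p = 0.0268). Its BPC libraries lay closer to each other than those of the other 4 genes. Cyclin B3, another B-type cyclin, had ccnb3 at 3.28 and 3.40 FPKM against 5.07 and 4.64, a log2 change of 0.43 (SE 0.12, adjusted p = 0.0482).

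The 2 most abundant genes of this group were not called, although the libraries did not overlap in either. The mitotic kinase gene cdk1 was at 28.1 and 28.0 FPKM in DMSO and 36.9 and 31.6 in BPC, a log2 change of 0.28 (95% interval 0.00 to 0.55, limma adjusted p = 0.125). Cyclin B1, its main mitotic partner, had ccnb1 at 15.6 and 16.1 FPKM against 21.2 and 17.3, a log2 change of 0.26 (95% interval -0.05 to 0.57, adjusted p = 0.184). In each of these genes BPC 1 was the highest library. The ratio of ccnb2 to ccnb1 within a library, a pair chosen after the values were seen, was 0.172 and 0.155 in DMSO and 0.198 and 0.242 in BPC. With either DMSO library left out none of the 3 calls held (adjusted p 0.126 to 0.267), and without BPC replicate 1 only 1 of 3 did (adjusted p 0.0475 to 0.0907). With TPM scaling none held (adjusted p 0.0705 to 0.183). With 0.1 or 0.01 in place of the 1 added to FPKM, the call of ccnb3 was lost (adjusted p = 0.0503 and 0.0521).

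None of the 4 genes in the group of mitotic kinases was called, where 7.06% of all tested genes were called higher. In all 4 both BPC libraries lay above both DMSO libraries, against 23.0% of tested genes. The kinase genes cdk1 and aurkb are given in other groups, and aurkb was called higher. Polo-like kinase 1, which acts at centrosomes, kinetochores and the cleavage site, had plk1 at 21.4 and 19.6 FPKM in DMSO and 29.1 and 23.2 in BPC. Its log2 change was 0.33 (95% interval 0.00 to 0.65, limma adjusted p = 0.124). Aurora A, the Aurora kinase of centrosomes, had aurka at 8.08 and 8.09 FPKM against 11.2 and 9.41, a log2 change of 0.31 (95% interval 0.01 to 0.61, adjusted p = 0.114). The checkpoint kinase genes ttk and bub1 had log2 changes of 0.27 and 0.14, and that of bub1 was -0.10 with TPM scaling.

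Of 7 rows of checkpoint and anaphase control, 2 rose. BubR1, the checkpoint protein that blocks the anaphase activator Cdc20, had bub1bb at 2.09 and 1.92 FPKM in DMSO and 3.49 and 2.92 in BPC, a log2 change of 0.48 (SE 0.14, limma adjusted p = 0.0479). Emi1, an inhibitor of the anaphase promoting complex, had fbxo5 at 1.37 and 1.72 FPKM against 2.47 and 2.67, a log2 change of 0.49 (SE 0.14, adjusted p = 0.0479). Both genes were among the low rows, and both lay close to the threshold. With 0.1 or 0.01 in place of the 1 added to FPKM, both calls were lost (adjusted p 0.0516 to 0.0586). Neither call held once either DMSO library or BPC replicate 1 was left out (adjusted p 0.0707 to 0.310) or with TPM scaling (adjusted p 0.113 to 0.126). Without BPC replicate 3 that of fbxo5 was also lost (adjusted p = 0.0837).

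The other checkpoint rows were not called. Mad2, which captures Cdc20 when chromosomes are unattached, had mad2l1 at 17.8 and 20.9 FPKM against 27.6 and 23.3, a log2 change of 0.37 (95% interval 0.05 to 0.70, limma adjusted p = 0.0854). The log2 change was 0.30 for cdc20 and 0.27 for espl1, which encodes separase, the protease that opens cohesin at anaphase. The ube2c rows, for the enzyme that starts ubiquitin chains on substrates of the anaphase promoting complex, overlapped between the groups. ENSDARG00000114670 was at 21.9 and 25.5 FPKM in DMSO and 25.8 and 24.0 in BPC, a log2 change of 0.07 (95% interval -0.21 to 0.36) that was -0.18 with TPM scaling. ENSDARG00000101618 was at 10.8 and 14.4 FPKM against 11.8 and 10.2, a log2 change of -0.17 (95% interval -0.55 to 0.20). Reads could be split between rows of 1 symbol, so each is uncertain, and their sums of 32.7 and 39.9 against 37.6 and 34.2 overlapped as well.

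All 7 kinetochore genes had both BPC libraries above both DMSO libraries, against 23.0% of tested genes. Beside 7.06% of all tested genes called higher, 1 of the 7 was called. It was ndc80 (ENSDARG00000071694), for the microtubule-binding subunit that gives the Ndc80 complex its name, at 9.72 and 9.94 FPKM in DMSO and 19.3 and 15.9 in BPC. Its ratio of means, 1.79, was the highest of the 47 rows, with a log2 change of 0.77 (SE 0.13, limma adjusted p = 0.00977). With TPM scaling the log2 change was 0.56 (adjusted p = 0.0199). Leaving out either DMSO library ended the call, with an adjusted p of 0.0653 without replicate 1 and of 0.0516 without replicate 3.

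Within the Ndc80 complex the changes were of different size. Nuf2, which pairs with Ndc80 at the microtubule end, had nuf2 at 8.63 and 7.58 FPKM against 13.4 and 10.4, a log2 change of 0.50 that lay just outside the threshold (limma adjusted p = 0.0530). The centromere-side subunit genes spc24 and spc25 had log2 changes of 0.26 and 0.10, the latter -0.09 with TPM scaling. The ratio of ndc80 to spc25 within a library was 5.23 and 5.80 in DMSO and 9.24 and 8.50 in BPC. That of ndc80 to nuf2 was 1.13 and 1.31 in DMSO and 1.44 and 1.52 in BPC. Both pairs were chosen after the values were seen, and such ratios do not depend on library scaling. The first pair holds the largest and the smallest change of the complex, and spc25 was low, with a mean of 1.88 FPKM over all libraries. Whether the changes of these genes differ was not tested. The kinesin gene cenpe, whose product carries chromosomes to the spindle equator, was at 9.96 and 8.96 FPKM against 12.0 and 10.3, a log2 change of 0.21 (95% interval -0.09 to 0.51, adjusted p = 0.255). With TPM scaling it was -0.02. The outer kinetochore gene cenpf and the gene knstrn had log2 changes of 0.39 and 0.33.

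All 3 rows of the chromosomal passenger complex rose. This complex corrects faulty attachments at centromeres and then moves to the spindle midzone. Its kinase, Aurora B, had aurkb (ENSDARG00000037640) at 9.62 and 9.30 FPKM in DMSO and 16.9 and 15.098 in BPC, a log2 change of 0.70 (SE 0.11, limma adjusted p = 0.00916). Borealin had cdca8 at 4.84 and 5.35 FPKM against 8.18 and 7.26, a log2 change of 0.52 (SE 0.12, adjusted p = 0.0294). Survivin had birc5a at 6.18 and 6.22 FPKM against 8.42 and 8.90, a log2 change of 0.42 (SE 0.11, adjusted p = 0.0377). In each of the 3 genes the gap between the groups was wider than the gap within either group.

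The scaffold subunit gave a smaller value. The row described as inner centromere protein was at 24.2 and 25.6 FPKM in DMSO and 28.9 and 25.5 in BPC, and the groups overlapped (log2 change 0.12, 95% interval -0.15 to 0.39, limma adjusted p = 0.457). The ratio of aurkb to aurka within a library, chosen after the values were seen, was 1.19 and 1.15 in DMSO and 1.51 and 1.60 in BPC. With either DMSO library left out none of the 3 calls held (adjusted p 0.0655 to 0.231). Without BPC replicate 1 that of cdca8 was lost (adjusted p = 0.0613) and without BPC replicate 3 that of birc5a (adjusted p = 0.0503). With TPM scaling aurkb alone of the 3 was called (log2 change 0.49, adjusted p = 0.0217).

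Of 6 genes of spindle kinesins and microtubule proteins, 2 rose, both encoding motors. Eg5, which pushes spindle poles apart, had kif11 at 18.3 and 18.9 FPKM in DMSO and 31.6 and 26.3 in BPC, a log2 change of 0.61 (SE 0.12, limma adjusted p = 0.0174). The minus-end motor that opposes it had kifc1 at 15.2 and 15.3 FPKM against 23.2 and 20.9, a log2 change of 0.50 (SE 0.11, adjusted p = 0.0212). The highest DMSO value lay well under the lowest BPC value in both genes. Neither call held without DMSO replicate 1 or DMSO replicate 3 (adjusted p 0.0912 to 0.155) or with TPM scaling (adjusted p 0.0575 to 0.0988).

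The other 4 genes of this group also had both BPC libraries above both DMSO libraries and were not called. The microtubule-binding protein gene nusap1 was at 24.5 and 24.0 FPKM against 34.8 and 28.2, a log2 change of 0.36 (95% interval 0.05 to 0.67, limma adjusted p = 0.0845). The log2 change was 0.21 for tpx2, whose product activates Aurora A, 0.21 for dlgap5 and 0.10 for hmmr, both spindle protein genes. With TPM scaling these 3 values were -0.03, -0.02 and -0.14.

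The genes of the central spindle and cytokinesis were divided, with the lowest median log2 change of the 8 groups, 0.01. Both genes of centralspindlin, the complex that bundles midzone microtubules, rose. Its kinesin gene kif23 was at 7.10 and 7.10 FPKM in DMSO and 10.5 and 9.35 in BPC, a log2 change of 0.43 (SE 0.12, limma adjusted p = 0.0401). Its GTPase activator gene racgap1 was at 4.79 and 5.09 FPKM against 7.53 and 6.57, a log2 change of 0.44 (SE 0.12, adjusted p = 0.0472). With 0.1 or 0.01 in place of the 1 added to FPKM, racgap1 was not called (adjusted p = 0.0503 and 0.0529). Neither call held once either DMSO library or BPC replicate 1 was left out (adjusted p 0.0746 to 0.272) or with TPM scaling (adjusted p 0.200 to 0.205).

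The other 5 genes of this group were near 0 or below. The RhoA activator gene ect2, whose product binds centralspindlin to start the furrow, was at 1.78 and 1.61 FPKM in DMSO and 1.64 and 1.78 in BPC (log2 change 0.01, 95% interval -0.31 to 0.32). The furrow scaffold gene anln was at 8.75 and 9.64 FPKM against 9.42 and 8.29 (log2 change -0.05, 95% interval -0.34 to 0.24), and its sign turned with median centring (0.10) and quantile normalization (0.01). The microtubule bundler genes prc1a and prc1b had log2 changes of 0.10 and 0.00. The groups overlapped in all 4 genes. With TPM scaling ect2, prc1a and prc1b were at -0.20, -0.12 and -0.23. The kinesin gene kif20a (ENSDARG00000044491), whose product brings the passenger complex to the midzone, was at 7.78 and 7.59 FPKM against 6.24 and 5.78. Its log2 change was -0.31 (95% interval -0.58 to -0.03, limma adjusted p = 0.0931), or -0.19 relative to all tested genes. With TPM scaling it was called lower (-0.58, adjusted p = 0.0149). In that scaling 36.7% of all tested genes were called lower, and their median log2 change was -0.36 over all tested genes. The ratio of the kinesin genes kif23 to kif20a within a library, chosen after the values were seen, was 0.912 and 0.935 in DMSO and 1.67 and 1.62 in BPC.

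Of 8 genes of condensin, cohesin and chromosome structure, 1 rose. It was ncapg, for a regulatory subunit of condensin I, the ring complex that compacts chromosomes, at 11.7 and 11.7 FPKM in DMSO and 20.9 and 16.6 in BPC. Its log2 change was 0.63 (SE 0.13, limma adjusted p = 0.0206). The log2 changes of the other condensin I genes were 0.45 for ncapd2 (adjusted p = 0.0517), 0.43 for smc2, 0.39 for ncaph and 0.07 for smc4, and none of these was called. With TPM scaling smc4 was at -0.17. The ATPase gene smc4 was at 13.1 and 12.5 FPKM against 13.2 and 13.7, a narrow range beside that of ncapg. The ratio of ncapg to smc4 within a library, chosen after the values were seen, was 0.897 and 0.935 in DMSO and 1.58 and 1.21 in BPC. The adjusted p of ncapg was 0.112 with DMSO replicate 1 left out, 0.103 with DMSO replicate 3 left out and 0.0601 with TPM scaling, so that each ended its call.

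The widely used proliferation markers of this group were not called. The Ki-67 gene mki67, whose product coats mitotic chromosomes, was at 28.6 and 31.9 FPKM in DMSO and 41.1 and 33.6 in BPC, a log2 change of 0.29 (95% interval -0.03 to 0.61, limma adjusted p = 0.152). Topoisomerase II alpha, which untangles sister chromatids, had top2a at 25.5 and 27.7 FPKM against 34.7 and 29.3, a log2 change of 0.25 (95% interval -0.04 to 0.55, adjusted p = 0.175). In both genes the groups did not overlap. The sororin gene cdca5, whose product protects cohesin, was at 7.03 and 6.57 FPKM against 9.00 and 6.39, with overlap between the groups, and its log2 change of 0.14 was -0.09 with TPM scaling.

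**Figure D3:**
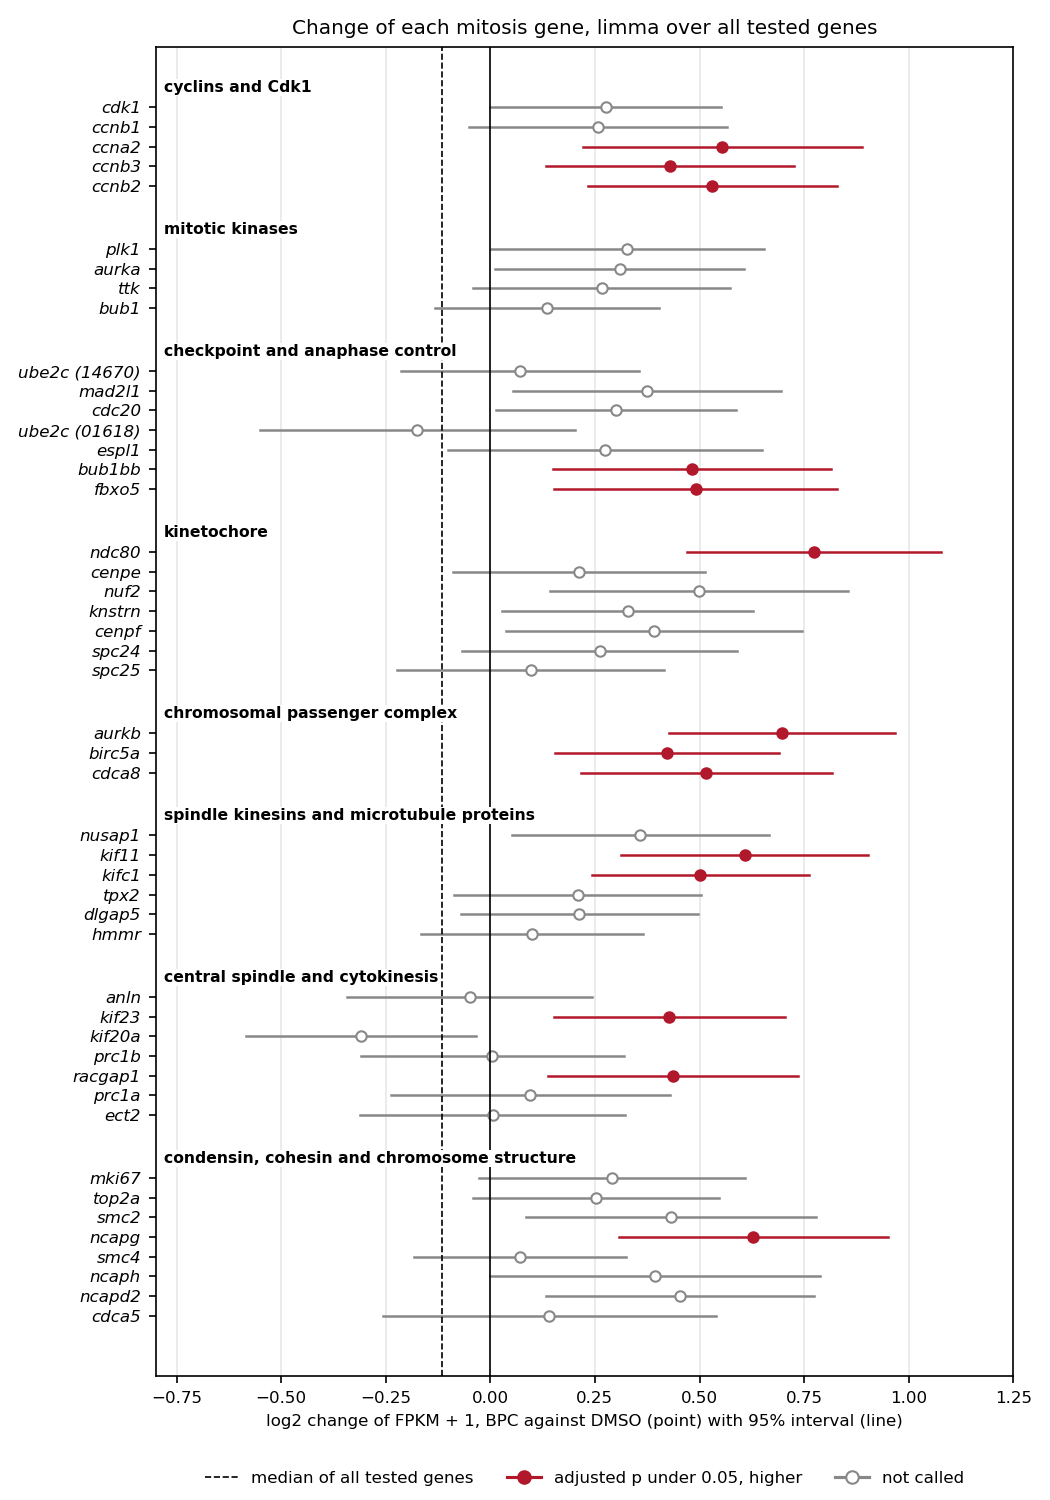
Log2 change of FPKM + 1, BPC against DMSO, for each of the 47 rows with its 95% limma interval, and the median of all tested genes at -0.12 as a dashed line. The 14 rows called higher lie between 0.42 and 0.77, and kif20a lies lowest at -0.31.

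By summed FPKM, the 3 passenger complex rows found by symbol came to 20.6 and 20.9 in DMSO and 33.5 and 31.3 in BPC, a ratio of 1.56. With the abundant row described as inner centromere protein added, the ratio was 1.31, below the 1.40 of the kinetochore genes. Kinetochore genes summed to 48.3 and 46.7 in DMSO and 72.5 and 60.3 in BPC, and cyclins with cdk1 to 56.6 and 57.3 in DMSO and 79.7 and 67.4 in BPC. Checkpoint and anaphase rows, which hold ube2c, summed to 68.1 and 79.7 in DMSO and 91.2 and 79.9 in BPC, and cytokinesis genes to 39.4 and 42.0 in DMSO and 45.9 and 42.0 in BPC. Such sums follow the abundant genes of a group.

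**Figure D4:**
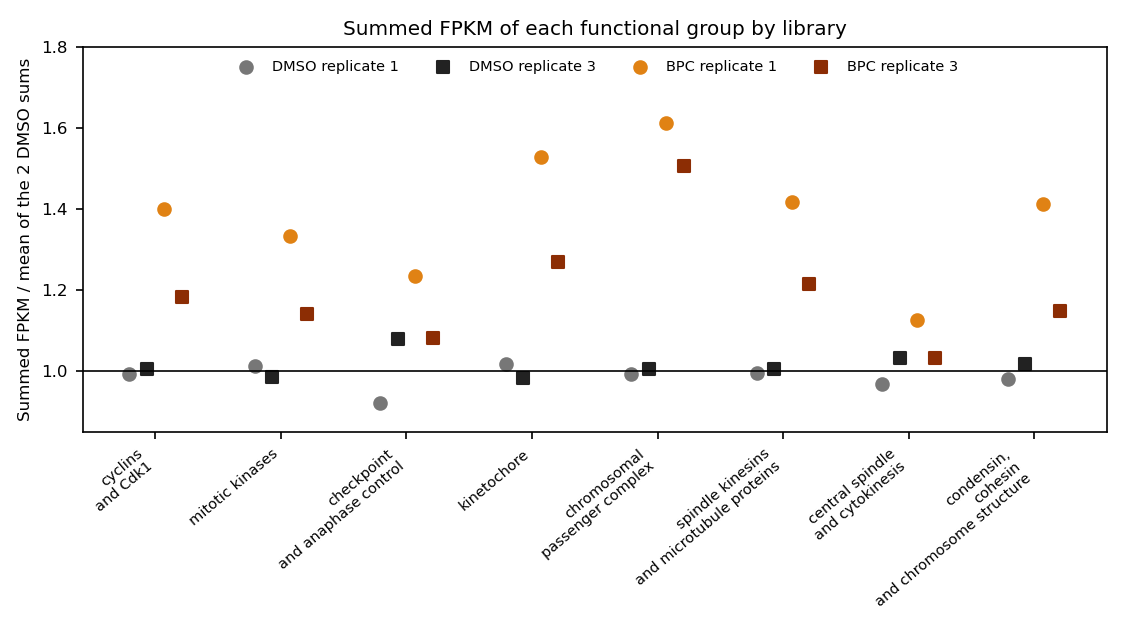
Summed FPKM of each functional group in each library (1 point each), divided by the mean of the 2 DMSO sums of that group. The 3 passenger complex rows, without the row described as inner centromere protein, have a ratio of 1.56 (1.31 with it), and the cytokinesis genes one of 1.08.

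In the authors' deposited table, 33 of the 47 rows had a ratio above 1 with a q-value under 0.05, where 13.0% of the genes tested here did. No row was lower at such a q-value in the authors' deposited table, where 12.5% of the tested genes were. All 14 rows called by limma were among those 33. None of the 47 was marked significant in the authors' deposited table, where 10.2% of the tested genes were marked, 2.35% as higher, and the lowest absolute log2 ratio of a marked gene was 1.0. The authors' deposited KEGG table for BPC 3 against DMSO 3 lists cell cycle with 2 genes, cdc14aa and gadd45ga, of 137 annotated. It lists 424 of 5689 annotated genes in all, and none of the 47 rows is among them. As no row reached a 2-fold change of the group means, this absence does not show whether the rows changed by less.

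Other mitosis genes, 66 tested outside the 47 rows, had 13 called higher (19.7%) and 0 lower, with 24 and 2 at an unadjusted p under 0.05 in limma. Here and below, the share of a list called at the adjusted threshold stands beside 7.06% higher and 17.5% lower among all tested genes. Their median log2 change was 0.25, or 0.37 relative to all tested genes. The smallest p belonged to g2e3, a ubiquitin ligase gene named for its expression in G2, at 5.36 and 5.23 FPKM in DMSO and 12.3 and 10.0 in BPC (log2 change 0.94, adjusted p = 0.00630). It was called under all 13 alternatives. The kinetochore genes cenpx, at 4.87 and 4.76 FPKM against 8.88 and 8.32, and mis12, at 1.22 and 1.56 against 3.22 and 2.82, and the phosphatase gene cdkn3, at 2.37 and 2.02 against 3.81 and 3.89, followed (adjusted p = 0.00866, 0.0152 and 0.0221). These 3 calls were lost without DMSO replicate 1 and without DMSO replicate 3, with adjusted p up to 0.0655, 0.118 and 0.163 over the alternatives.

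Genes of the anaphase promoting complex and its enzymes were called in both directions, 2 higher (11.1%) and 2 lower (11.1%) of 18. The shares of all tested genes were 7.06% and 17.5%. The chain-extending enzyme gene ube2s rose, at 14.7 and 14.1 FPKM in DMSO and 22.9 and 21.8 in BPC (log2 change 0.60, limma adjusted p = 0.0114), in contrast to the values of ube2c. The subunit gene anapc16 rose as well (0.53, adjusted p = 0.0396), and the subunit genes anapc15 (-0.51, adjusted p = 0.0254) and cdc16 (-0.44, adjusted p = 0.0399) fell. All 4 calls were lost without DMSO replicate 1 and without DMSO replicate 3 (adjusted p up to 0.287 over the alternatives), those of anapc16 and cdc16 also without BPC replicate 1 and without BPC replicate 3. Scaling ended calls too, that of anapc16 with TPM, those of anapc15 and cdc16 with median centring and that of cdc16 with quantile normalization.

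Of 19 condensin II and cohesin genes, 0 rose, with 7 higher at an unadjusted p under 0.05 in limma, and rad21b, for a cohesin subunit, fell (5.26% of the list). It was at 10.1 and 12.1 FPKM in DMSO and 6.52 and 7.51 in BPC (log2 change -0.59, adjusted p = 0.0247). Of 10 centriole assembly genes, 0 rose, with 0 higher at an unadjusted p under 0.05, and cep135 fell (10% of the list). It was at 5.71 and 6.32 FPKM against 3.55 and 3.38 (log2 change -0.65, adjusted p = 0.0146). Both calls were lost without DMSO replicate 1 and without DMSO replicate 3, that of rad21b also without BPC replicate 1 and with median centring (adjusted p up to 0.181 for rad21b and 0.119 for cep135 over the alternatives).

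Of 27 regulators of G2/M transcription, 4 rose (14.8%) and 1 fell (3.7%). The CCAAT-binding factor gene nfyba rose, at 34.0 and 39.6 FPKM in DMSO and 59.9 and 54.5 in BPC (log2 change 0.62, limma adjusted p = 0.0152). The repressive E2F gene e2f7 (0.59, adjusted p = 0.0298) and the histone-binding protein gene rbbp4 (0.46, adjusted p = 0.0449) rose, and so did lin52. The pocket protein gene rbl2, whose product helps repress cell cycle genes in resting cells, fell, at 3.04 and 3.18 FPKM against 1.51 and 1.68 (log2 change -0.66, adjusted p = 0.0160). The calls of nfyba, e2f7, rbbp4 and rbl2 were lost without DMSO replicate 1 and without DMSO replicate 3, with adjusted p up to 0.236 over the alternatives, those of e2f7 and rbbp4 also without BPC replicate 1 and with TPM scaling, and those of rbbp4 and rbl2 with quantile normalization. The activator genes foxm1 and mybl2b, and lin52, were chosen after their values were seen. foxm1 was at 3.22 and 3.04 FPKM against 4.16 and 3.07 (adjusted p = 0.509) and mybl2b at 3.98 and 3.42 against 6.78 and 5.04 (adjusted p = 0.0529), neither of them called.

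Of 10 cell cycle inhibitor genes, 4 rose (40%) and 2 fell (20%). The antiproliferative gene btg3 was at 7.14 and 7.87 FPKM in DMSO and 21.7 and 16.1 in BPC (log2 change 1.22, limma adjusted p = 0.00525) and was called under all 13 alternatives. Its relative btg1 was at 51.4 and 51.2 FPKM against 89.3 and 80.8 (adjusted p = 0.00742), and the Cdk inhibitor gene cdkn1ca at 12.8 and 13.3 against 28.8 and 20.8 (adjusted p = 0.0144). All 3 rose, as did btg2, named after its value was seen. The Cdk inhibitor gene cdkn1ba fell, at 12.0 and 12.1 FPKM against 7.30 and 7.84 (adjusted p = 0.0127). So did cdkn1a, a target of p53, at 4.31 and 3.26 FPKM against 1.33 and 1.94 (log2 change -0.86, adjusted p = 0.0194). The calls of btg1, cdkn1ca and cdkn1ba were lost without DMSO replicate 1 and without DMSO replicate 3 (adjusted p up to 0.0714, 0.0708 and 0.103 over the alternatives), and that of cdkn1a without DMSO replicate 1 and with quantile normalization (up to 0.120).

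Of 17 DNA damage response targets, ccng1 (log2 change 0.69, limma adjusted p = 0.0266) and rps27l (0.55, adjusted p = 0.0346) rose and sesn1 (-0.51, adjusted p = 0.0219) fell. That is 11.8% higher and 5.88% lower. Of 8 G1 cyclin and kinase genes, cdk2, the kinase of S phase entry, rose (12.5% of the list), at 8.08 and 8.36 FPKM against 13.8 and 11.1 (adjusted p = 0.0318). All 4 calls were lost without DMSO replicate 1 and without DMSO replicate 3, and those of ccng1, rps27l and cdk2 also without BPC replicate 1 and with TPM scaling (adjusted p up to 0.239 over the alternatives). The call of sesn1 ended with median centring and that of ccng1 with quantile normalization.

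DNA replication genes, which act in S phase, had 7 of 50 called higher (14%) and 0 lower, with 15 and 0 at an unadjusted p under 0.05 in limma. Their median log2 change was 0.23, or 0.35 relative to all tested genes, and whether it differs from that of the mitosis rows was not tested. The helicase subunit gene mcm7 rose, at 18.0 and 18.3 FPKM in DMSO and 28.4 and 28.6 in BPC (log2 change 0.62, adjusted p = 0.00875). So did rfc4, for a clamp loader subunit (0.55, adjusted p = 0.0217), and cdc45, for a helicase partner (0.66, adjusted p = 0.0222). The sliding clamp gene pcna was the most abundant of these 4, at 114 and 111 FPKM against 203 and 157 (log2 change 0.66, adjusted p = 0.0233). The helicase gene mcm5, at 24.7 and 21.9 FPKM against 31.4 and 26.0, was not called (0.29, adjusted p = 0.157). The calls of mcm7, rfc4, cdc45 and pcna were lost without DMSO replicate 1 and without DMSO replicate 3 (adjusted p up to 0.166 over the alternatives), those of rfc4 and pcna also with TPM scaling and that of pcna with quantile normalization.

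Over the 9 lists of cell cycle genes outside the 47 rows, 33 of 225 tested genes were called higher and 8 lower. That is 14.7% higher, beside the 7.06% of all tested genes, and 3.56% lower, beside 17.5%. These lists too were chosen with earlier results of these data known, so the shares describe them and are not a test. The counts of higher and lower calls were 2 and 0 without DMSO replicate 1, and 2 and 1 without DMSO replicate 3. The higher calls were then 0.889% and 0.893%, under the shares of all genes tested in those settings. They were 20 and 8 without BPC replicate 1 and 70 and 9 without BPC replicate 3. With TPM scaling they were 11 and 20, or 4.89% higher, near the 3.82% of all tested genes, and 8.89% lower, beside 36.7%. Of the genes named from these lists, cdkn3, anapc15, anapc16, cdc16, rad21b, e2f7, rbbp4, cdkn1a, ccng1, rps27l, cdk2, cdc45 and pcna also lost their calls without the filter on low values. The calls of anapc16 and rbbp4 were also lost with 0.01 in place of the 1 added to FPKM.

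**Figure D5:**
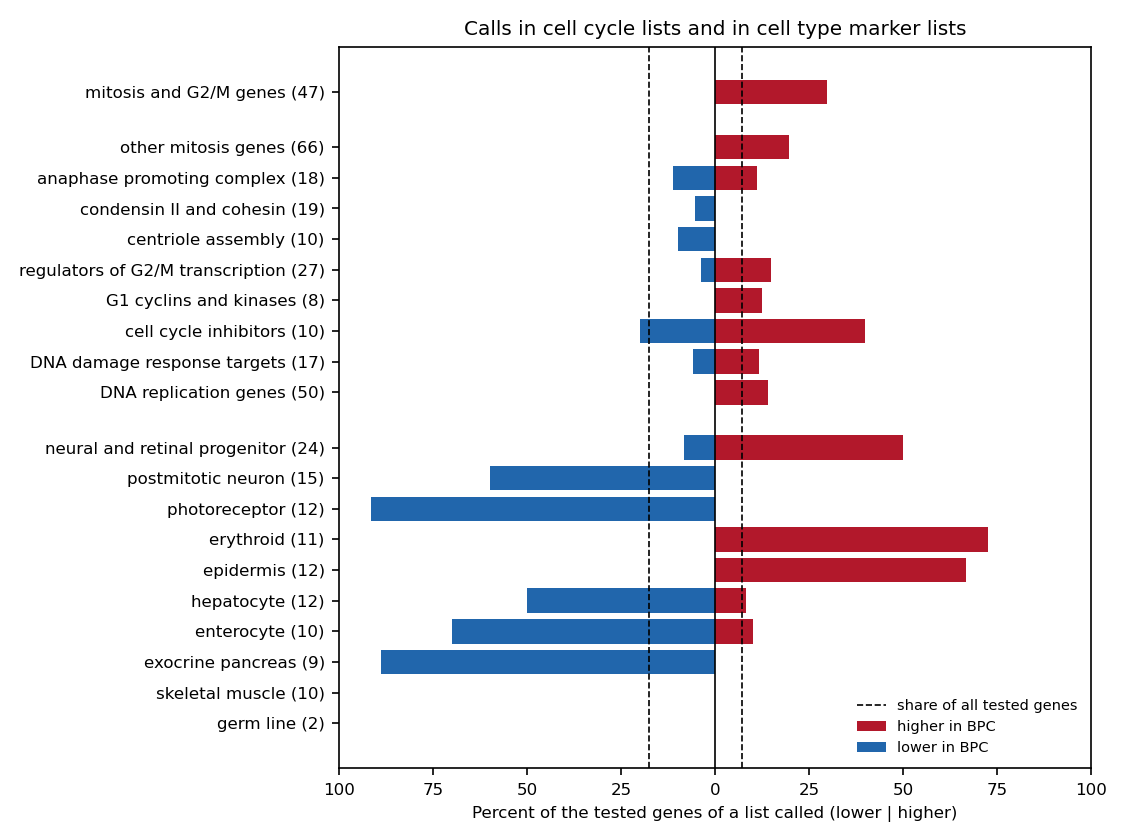
Percent of the tested genes of each list called higher or lower in BPC, with the shares of all tested genes, 7.06% and 17.5%, as dashed lines. The mitosis rows reach 29.8% higher and 0% lower, and the photoreceptor markers 91.7% lower.

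Marker genes of several cell types moved with exposure beside the mitosis genes. The counts of each marker list stand beside 7.06% higher and 17.5% lower among all tested genes. Of 24 neural and retinal progenitor genes, 12 rose and 2 fell, and their summed FPKM was 648 and 679 in DMSO and 595 and 608 in BPC, a sum led by fabp7a, which fell. The progenitor gene sox3, chosen after its values were seen, was at 17.1 and 18.7 FPKM against 36.4 and 26.9. Of 15 genes of postmitotic neurons, 9 fell, with sums of 898 and 869 in DMSO and 502 and 658 in BPC. Of 12 photoreceptor genes, 11 fell, with sums of 1756 and 1414 in DMSO and 30.7 and 99.4 in BPC, and opn1mw1 was at 0 in BPC 1. The part of these cells in the mitosis values was not tested.

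Most blood and skin markers were higher in BPC. Of 11 erythroid genes 8 rose, with sums of 1804 and 1755 in DMSO and 4739 and 4830.3 in BPC. Of 12 epidermis genes 8 rose, with sums of 10419 and 10820.4 in DMSO and 23411 and 19248 in BPC. Of 10 skeletal muscle genes 0 were called in either direction by limma, with 1 higher and 1 lower at an unadjusted p under 0.05. Only 2 of 6 germ line genes were tested, with 0 calls and 0 at an unadjusted p under 0.05. All 6 summed to 1.64 and 2.47 in DMSO and 2.38 and 2.54 in BPC. The part of these cells in the mitosis values was likewise not tested.

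Of the organs named in the title, liver markers moved in both directions and most gut markers were lower in BPC. Of 12 hepatocyte genes 6 fell and 1 rose, with sums of 4464 and 4227 in DMSO and 4748 and 4815 in BPC that follow the apolipoprotein genes. Of 10 enterocyte genes 7 fell and 1 rose, with sums of 490.0 and 424 in DMSO and 399 and 360.1 in BPC. Of 9 tested exocrine pancreas genes 8 fell. The 10 genes of that list found, tested or not, summed to 84.1 and 101 in DMSO and 7.13 and 5.99 in BPC, and 4 were at 0 in a library. The liver gene fabp10a and the brush border gene vil1 were chosen after their values were seen. The values were 55.3 and 36.2 FPKM against 1.64 and 2.96 for fabp10a and 7.98 and 6.68 against 0.201 and 0.593 for vil1. Their lists had median log2 changes of -0.50 (hepatocyte) and -0.89 (enterocyte). Mitosis transcripts of these organs are not measured apart.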

How the data were processed

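RNA-seq was made from poly(A) RNA of 4 libraries, 2 DMSO and 2 BPC. The deposited values are FPKM per gene, per the file headers. The authors' deposited table also gives a ratio (fold change) of the group values, its log2, a p-value and a q-value. Tools listed in the submitters' processing notes, with no role, are StringTie 1.3.4d, HISAT2 2.0.4, cutadapt 1.9, edgeR and DESeq2. Build and annotation: not given in the sources used here.

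From the FPKM values limma 3.58.1 in R 4.3.3 was fitted to log2(FPKM + 1) by group, with an intensity trend, for genes of at least 0.5 FPKM in at least 2 libraries. The scripts were tested on simulated data. Read counts are unknown, so precision rests on 2 libraries a group. Values in every library are given for called rows and for the 2 most abundant of each functional group, and for pcna, mcm5 and cdkn1a. Outside that rule, they are also given for nuf2, smc4, kif20a, ect2, cdca5 and the ube2c row ENSDARG00000101618. From each other list, up to 4 called genes with the smallest p are named, some of them with a log2 change and adjusted p only. The members and lists were chosen with earlier results of these data known. Ratios between genes were chosen after the values were seen. The alternatives changed the pseudocount, filter, scaling, trend and libraries, or added the replicate block. A search of promoter motifs was not run, and promoter sequences were not used here. The number of sample columns that could not be matched was 0.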

Additional observations from a re-analysis of the deposited data

How the results depend on the processing

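The main limit was the number of libraries: with 1 left out, the lone sample of its group is assumed to vary like the other group. Leaving out each library in turn gave 329 to 2097 genes higher and 675 to 4146 lower, against 1404 and 3480 with all 4. It gave 0 to 28 of the 47 mitosis rows higher, against 14, a median log2 change of 0.18 to 0.42, against 0.31, and 2 to 70 genes of the other cell cycle lists higher with 0 to 9 lower, against 33 and 8. Without the filter, which raises the number of genes tested, 748 genes were higher and 2020 lower, with 4 mitosis rows higher and 11 and 4 genes of the other lists. The 4 rows are 8.51% of the 47 and the 11 genes 4.74% of the other lists, beside 2.78% of all genes tested. With TPM scaling 759 genes were higher and 7286 lower, with 2 mitosis rows higher and 1 lower at a median of 0.085, and 11 and 20 genes of the other lists. Median centring gave 2441 and 1997, with 24 mitosis rows higher at a median of 0.46 and 63 and 4 genes of the other lists. The 24 are 51.1% of the rows and the 63 are 28% of the other lists, beside 12.3% of all tested genes. Quantile normalization gave 1948 genes higher and 2111 lower, with 17 mitosis rows higher at a median of 0.36 and 53 and 5 genes of the other lists. The 17 are 36.2% of the rows and the 53 are 23.6% of the other lists, beside 9.80% of all tested genes. All 14 calls were kept. Of all calls, 71.3% were lower as reported, 90.6% with TPM scaling, 44.998% with median centring and 52.0% with quantile normalization.

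With the replicate block, 9 mitosis rows were called higher (19.1%, beside 6.71% of all tested genes), among them 8 of the 14. The labels tie the numbers to no shared batch. The deviations of same-numbered libraries from their group means had a correlation of 0.00805 across 19873 genes. Those genes are not independent, so this value cannot tell whether same-numbered libraries shared a batch.

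Signs turned in 14 of the 47 rows under some alternative, none of them called, and in 12 of these with TPM scaling. Among the 2 most abundant rows of each functional group, the ube2c row ENSDARG00000114670 was at -0.18 with TPM scaling and -0.035 without DMSO replicate 1. There cenpe was at -0.021 with TPM scaling. The gene anln was at 0.10 with median centring, 0.010 with quantile normalization, and between -0.13 and 0.034 with a library left out. Among the other rows, ect2 was at -0.031 without BPC replicate 3 and -0.038 without DMSO replicate 3, and cdca5 at -0.076 without BPC replicate 1. The gene prc1b was at -0.068 without BPC replicate 1 and -0.093 without DMSO replicate 1, and prc1a at -0.013 without DMSO replicate 1. The ube2c row ENSDARG00000101618 was at 0.014 without DMSO replicate 3. Where no construction is named, the cause was not tested.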

Other observations

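Lists were also taken from the deposited annotation after the data were seen. Of 118 tested genes annotated to the KEGG cell cycle outside the 47 rows, 8 rose (6.78%, beside 7.06% of all tested genes) and 11 fell (9.32%, beside 17.5%), and their median log2 change was 0.02. Of 78 tested genes annotated to cell division, 5 rose (6.41%) and 7 fell (8.97%), with a median of 0.03. Of 29 tested genes annotated to the kinetochore, 4 rose (13.8%) and 0 fell, with 1 lower at an unadjusted p under 0.05 in limma, and the median was 0.20. The shares higher of the first and second list are near that of all tested genes. These lists share genes with one another and with the other cell cycle lists.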
